A study of Mus musculus with 6 samples.

Results

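Bmyc and 9 further genes of the MYC-MAX network were followed in liver RNA of Balb/c and Balb/cBy mice. The members are Bmyc, Myc, Mycn, Mycl, Max, Mxd1, Mxd4, Mxi1, Mnt and Mga, 10 of the 22180 genes measured. Bmyc was chosen by its measured difference between the substrains on these same arrays, so its values are a description and carry no test. The other 9 were taken as factors of the same network. Each gene was read by the probe set (the group of array probes that targets 1 transcript) that names it alone in the platform annotation. Of several such probe sets, that of the highest average over the 6 arrays stood for the gene.

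The series holds 6 Affymetrix arrays of liver RNA from male mice, 3 of Balb/c and 3 of Balb/cBy, labelled as biological replicates. All mice ate a high-fat diet (58% of energy as fat) for 12 weeks, starting when they were 8 weeks old, and were 20 weeks old at sampling. Both groups shared this diet, and mice on other diets were not analysed here. The labels name neither a supplier nor a further substrain letter for the Balb/c mice, and they do not say whether 1 array is 1 mouse. The Balb/cBy substrain is known to lack a working Acads, a mitochondrial acyl-CoA dehydrogenase. The albumin gene Alb stood between 14.16 and 14.22 on the 6 arrays, on the log2 scale used for all levels here, in which 1 unit is a doubling. Array medians lay between 7.66 and 7.74, and correlations between arrays over all probe sets between 0.972 and 0.988.

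MYC proteins are transcription factors that bind DNA as pairs with MAX, at a short sequence called the E-box, and raise genes of ribosome production, metabolism and cell division. MXD proteins, MXI1, MNT and MGA also pair with MAX at such sites and repress, so the balance of partners around MAX sets the output. B-MYC, the product of Bmyc, resembles the front part of c-MYC but lacks the region that binds MAX and DNA, and it has been described as a modulator of MYC activity. In adult liver MYC is known for its rise during regeneration and in tumours.

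Beside the higher level of Bmyc in Balb/cBy, 4 of the other 9 members had positive and 5 negative differences, where 10883 of all 22180 genes were positive. Of the 5, Mga turned positive without Balb/c replicate 3 and with array weights, at 0.22 and 0.12. Max, the shared partner, and Myc were the other members with positive differences above 0.10, at 0.51 (SE 0.16) and 0.40 (SE 0.18) on the log2 scale, Balb/cBy minus Balb/c (SE is the standard error from the fit, 3 arrays a group). Mycn, Mycl and the repressors Mxd1, Mnt and Mga had differences between -0.20 and -0.10, and Mxd4 and Mxi1 stood at 0.08 and 0.06. None of the 9 passed an adjusted p of 0.05 in limma, where the share of all genes past it was 0%. Each of the 9 had an adjusted p of 0.999. Over all 22180 genes, 833 had an unadjusted p under 0.05 in limma, where 1109 would be expected if no gene differed. The ordinary test without moderation gave 724 and also called 0 genes. The test therefore separated no gene of the array from the spread between arrays, and it does not show that these 9 genes were equal in the substrains.

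**Figure D1:**
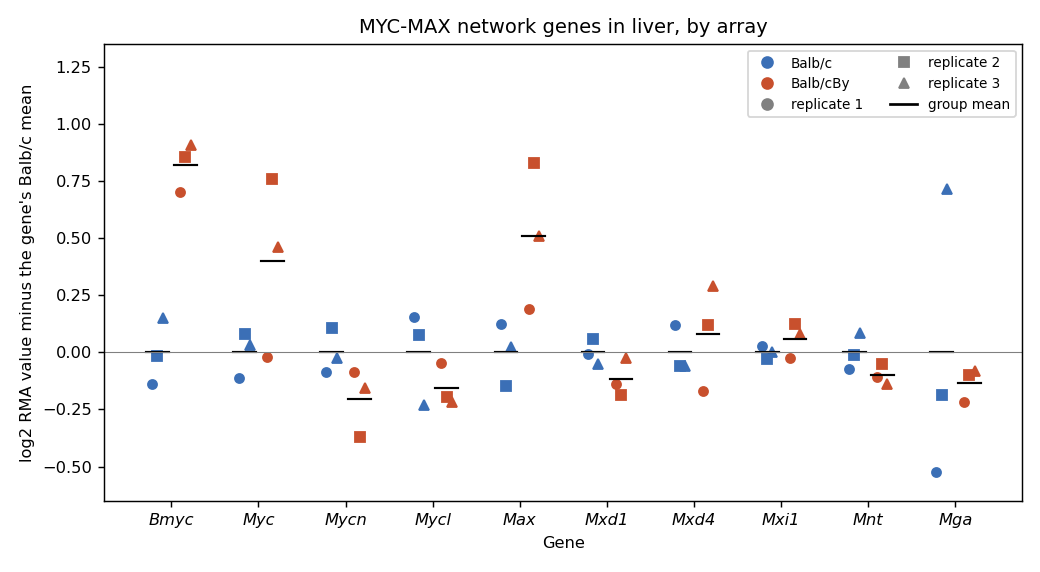
Level of each network gene on each array, as the log2 value minus the gene's own Balb/c mean (y axis), for the 10 genes (x axis); blue points are Balb/c, red points Balb/cBy, marker shapes are replicate numbers and black bars group means. The groups are apart for Bmyc, Max and Mycn, and Balb/c replicate 3 stands alone for Mga at 9.61.

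Bmyc read 10.11, 10.23 and 10.40 on the Balb/c arrays and 10.95, 11.11 and 11.16 on the Balb/cBy arrays, replicates 1 to 3 in that order. All 3 Balb/cBy arrays lay above all 3 Balb/c arrays, with 0.55 between the nearest. The means were 10.2 ± 0.14 and 11.1 ± 0.11 (SD, n = 3 each), a difference of 0.82 (SE 0.11) or 1.77-fold. A second Bmyc probe set, not used for the choice of the level, read 7.78, 8.05 and 8.09 in Balb/c and 8.44, 8.84 and 8.58 in Balb/cBy. It too had no overlap, with a difference of 0.65 (SE 0.14). Both probe sets were read from the same RNA samples on the same arrays, so the second is not a separate replicate. Whether both target the same transcript was not tested.

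Myc encodes c-MYC, the member of the family best known in liver growth. It read 8.56, 8.75 and 8.70 in Balb/c and 8.65, 9.43 and 9.13 in Balb/cBy. Balb/cBy replicates 2 and 3 lay above every Balb/c array, while replicate 1 lay among them, so the groups overlapped. The difference of 0.40 was 1.32-fold, with a 95% interval from -0.02 to 0.82. Leaving out Balb/cBy replicate 2 gave 0.22, and leaving out Balb/cBy replicate 1 gave 0.61.

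Mycn and Mycl encode N-MYC and L-MYC, relatives that bind DNA with MAX as c-MYC does. Mycn read 7.62, 7.81 and 7.68 in Balb/c and 7.61, 7.33 and 7.54 in Balb/cBy. Its groups did not overlap, although the nearest arrays were 0.0034 apart, and the difference was -0.20 (SE 0.11). It was -0.12 without Balb/cBy replicate 2. Mycl read 7.83, 7.76 and 7.45 in Balb/c and 7.63, 7.49 and 7.46 in Balb/cBy, with overlap and a difference of -0.15 (SE 0.12). That of Mycl ran from -0.27 to -0.08 when each array was left out. Among the 4 MYC genes, then, Bmyc and Myc had positive differences and Mycn and Mycl negative ones.

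Max, the partner that the DNA-binding MYC and MXD proteins need, read 9.67, 9.40 and 9.57 in Balb/c and 9.74, 10.37 and 10.06 in Balb/cBy. Every Balb/cBy array was above every Balb/c array, but replicate 1 cleared the highest Balb/c array by 0.066 only. The means were 9.55 ± 0.14 and 10.1 ± 0.32 (SD, n = 3 each), a 1.42-fold difference with a 95% interval from 0.14 to 0.88. That interval is for 1 gene and is not adjusted for the 22180 tested. Balb/cBy replicate 2 was the highest array for both Max and Myc, and Balb/cBy replicate 1 the lowest of its group for both.

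The repressor arm showed smaller differences. Mxd1, which takes MAX in cells that stop dividing, read 8.93, 8.99 and 8.88 in Balb/c and 8.79, 8.74 and 8.91 in Balb/cBy, a difference of -0.12 (95% interval -0.33 to 0.09). Mxd4, a second MXD repressor, read 9.80, 9.62 and 9.62 in Balb/c and 9.51, 9.80 and 9.97 in Balb/cBy. Its difference of 0.08 (95% interval -0.22 to 0.38) was -0.025 without Balb/cBy replicate 3. Mxi1, a further repressor of this kind, lay between 8.84 and 8.89 in Balb/c and between 8.84 and 8.99 in Balb/cBy, a difference of 0.06 (95% interval -0.14 to 0.26). Its second probe set gave 0.06 as well. All 3 genes had overlapping groups.

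Mnt, a broadly present MAX partner that represses MYC targets, read 9.01, 9.07 and 9.17 in Balb/c and 8.97, 9.03 and 8.94 in Balb/cBy. The groups overlapped and the difference was -0.10 (95% interval -0.30 to 0.11). Mga, a large factor that carries a T-box beside its MAX-binding region, read 8.38, 8.71 and 9.61 in Balb/c and 8.68, 8.80 and 8.82 in Balb/cBy. The Balb/c arrays had an SD of 0.64 and the Balb/cBy arrays one of 0.074, and Balb/c replicate 3 stood above the other 5 arrays. The difference was -0.13 with all arrays and 0.22 without Balb/c replicate 3, so its direction rested on that array.

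**Figure D2:**
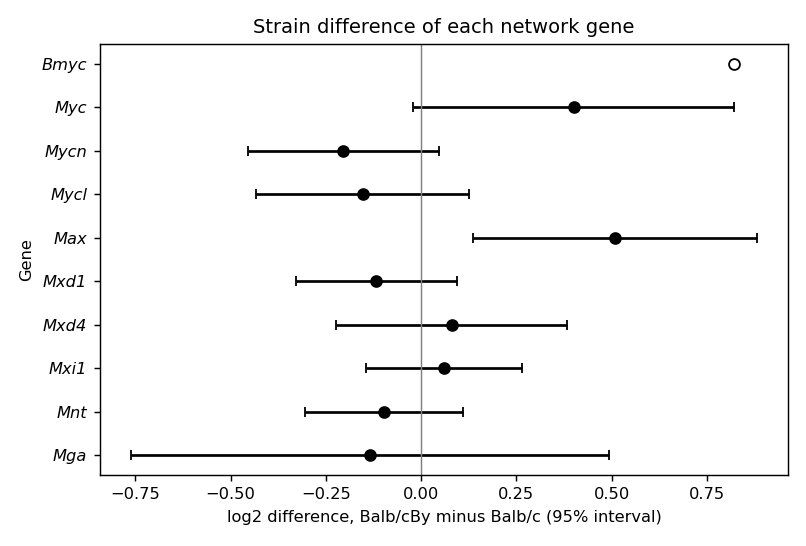
Difference of each network gene in log2 units (x axis, Balb/cBy minus Balb/c) with its 95% interval from the fit, unadjusted, for each of the genes on the y axis; the open point is Bmyc, shown without interval because it was chosen by this difference. The intervals of 8 of the other 9 genes include 0, and that of Max runs from 0.14 to 0.88.

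Non-overlap of the 2 groups was found for 2 of the 10 members in the higher direction, Bmyc by its choice and Max, and for 1 in the lower, Mycn. Over all genes 4.32% were apart with Balb/cBy higher and 3.51% with Balb/cBy lower. The median difference of the 9 members other than Bmyc was -0.10, with 4 above 0 and 5 below, and that of all genes was -0.0028.

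RefSeq promoter windows (GRCm38.p6, 250 bases before to 50 after the annotated start) were matched by symbol for 9 of the 10 members, all but Myc. They were searched for the E-box CACGTG, which reads the same on both strands, and for the variant CACGCG on both strands. Max, Mnt and Mxd4 held 1 CACGTG each, and Mycl and Mga 1 CACGCG each, while neither was found in the windows of Bmyc, Mycn, Mxd1 and Mxi1. Over all genes with a window, 8.09% had a CACGTG and 10.5% a CACGCG. The E-boxes are shown, in capitals, because they mark where partners of MAX may bind the network's own genes, with the stretch before Bmyc for comparison. The Bmyc stretch is the 250 bases before its start (chr2:25706629-25706878, plus strand). The Max stretch of 30 bases is centred on its start (chr12:76962234-76962263, minus strand). The Mnt stretch (chr11:74830774-74830833, plus strand) and the Mxd4 stretch (chr5:34187897-34187956, minus strand) are 60 bases each, with the E-box beginning at -123 and -219 from the start.
Bmyc: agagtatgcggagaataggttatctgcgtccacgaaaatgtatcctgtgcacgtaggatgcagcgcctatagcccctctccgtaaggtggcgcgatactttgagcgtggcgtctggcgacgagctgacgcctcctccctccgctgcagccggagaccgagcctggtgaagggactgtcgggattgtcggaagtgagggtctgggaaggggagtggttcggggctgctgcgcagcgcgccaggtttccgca
Max: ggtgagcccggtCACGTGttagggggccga
Mnt: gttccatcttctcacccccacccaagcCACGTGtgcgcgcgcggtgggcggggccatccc
Mxd4: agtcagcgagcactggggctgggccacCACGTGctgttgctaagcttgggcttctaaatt

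Of these E-box carriers, Max had the difference of 0.51 given above, and Mnt and Mxd4 had -0.10 and 0.08. Bmyc, which differed most of the members, held neither motif in its window. The search covered these letters in these windows and nothing beyond them.

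In chromosome order the gene directly beside Bmyc was Obp2a, an odorant-binding lipocalin, with 0 RefSeq genes between them. Whether the probe sets of the 2 genes share or cross transcripts was not tested, since the positions of the probes were not used here. Obp2a read 8.08, 8.57 and 10.40 in Balb/c and 13.29, 12.95 and 12.80 in Balb/cBy, a difference of 3.99 (SE 0.51) without overlap. It was already known as the gene that differed most on these arrays, so this value is no separate evidence. By the Bmyc probe set used, the 3 Balb/c arrays had the same order for both genes, replicate 3 highest, and in Balb/cBy the order was opposite. The second Bmyc probe set kept that order in Balb/c, but in Balb/cBy it had replicate 2 highest, at 8.84. On the other side of Bmyc, Obp2b read 7.17, 7.40 and 7.33 in Balb/c and 7.56, 7.33 and 7.19 in Balb/cBy, a difference of 0.06 (SE 0.12). The 10 nearest measured protein-coding genes, 5 on each side, are mostly lipocalins (Lcn8, Lcn5, Lcn6, Lcn10, Lcn3, Lcn11 and Lcn9), small carrier proteins of which many are known from the epididymis. Apart from Obp2a their differences lay between -0.21 for Glt6d1 and 0.23 for Lcn8, and all 9 overlapped. Beside Max, the 10 nearest genes had differences from -0.29 to 0.16, and Fut8 was the 1 without overlap, at 0.09 (SE 0.08). Of all 22180 genes, 20444 overlapped. These neighbours were looked at after the values of Bmyc and Obp2a were known.

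**Figure D3:**
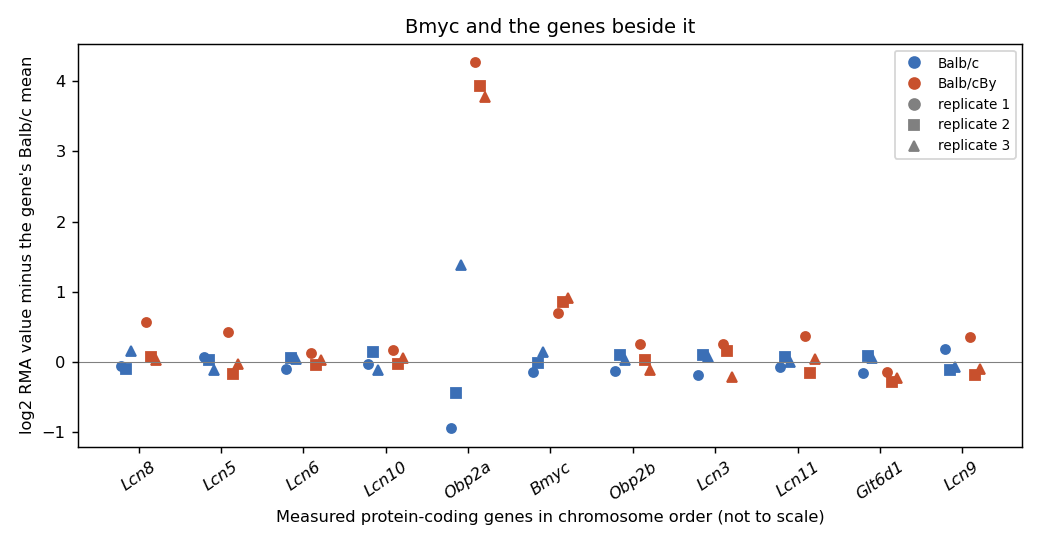
Bmyc and the 5 nearest measured protein-coding genes on each side in chromosome order (x axis, not to scale), as the log2 value on each array minus the gene's Balb/c mean (y axis); blue is Balb/c, red Balb/cBy, and shapes are replicate numbers. Bmyc and Obp2a are the genes with separated groups, and Obp2a in Balb/c spans 8.08 to 10.40.

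Genes whose levels followed Bmyc across the 6 arrays were ranked by Pearson correlation, as a description, among genes above the median level. With 3 arrays a group such correlations mostly restate the difference between the substrains. Manf, a secreted factor of endoplasmic reticulum stress, followed most closely (r = 0.987). Syvn1, a ubiquitin ligase that clears misfolded proteins from that compartment, had r = 0.985 and a difference of 0.83 (SE 0.11), close to that of Bmyc. Syvn1 read 9.11, 9.27 and 9.42 in Balb/c and 10.05, 10.20 and 10.04 in Balb/cBy. The ubiquitin ligase Mid1 (r = 0.978), Adamtsl2 (0.977) and Smim11 (0.976) came next. Ppm1n (-0.984), Rundc3a (-0.972) and the histone variant gene Macroh2a1 (-0.965) ran opposite. Among the members, r with Bmyc was 0.81 for Max, 0.74 for Myc, -0.71 for Mycn, -0.70 for Mycl and -0.69 for Mxd1, and it lay between -0.54 and 0.59 for the other 4.

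After the strain means were taken out, other genes were closest to Bmyc. They were the thiamine transporter Slc19a2 (r = 0.996), the G protein subunit Gna12 (0.991) and Fam160b1 (0.990), with strain differences between -0.18 and 0.04. On the same scale Mga had r = 0.85, Mnt 0.68, Myc 0.60 and Max 0.31, and Mycl had -0.95. For Mga, Balb/c replicate 3 read 9.61 where the other Balb/c arrays read 8.38 and 8.71. These correlations rest on 6 arrays, with fewer free values once both strain means are taken out. The genes named first were picked for the highest values among those above the median level, so high values there follow from the choice. Differences between the correlations were not tested.

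The parallel MLX branch of the network uses MLX in place of MAX. Mlx read 10.37, 9.75 and 9.99 in Balb/c and 10.22, 10.63 and 10.39 in Balb/cBy, a difference of 0.37 (SE 0.17) with overlap. Its partners Mlxip and Mlxipl, which sense glucose metabolites, differed by 0.17 (SE 0.11) and 0.24 (SE 0.21). Mlx stood at 0.23 without Balb/c replicate 2, and Mlxip at 0.10 without Balb/cBy replicate 2. For Mlxipl the difference was 0.51 without Balb/c replicate 3, which read 11.25 where the other Balb/c arrays read 10.47 and 10.41. Mxd3, Usf1 and Usf2, which also bind E-boxes or partner MAX, differed by -0.05, -0.09 and -0.05. None of these 6 genes passed (adjusted p = 0.999 each, limma) and all 6 overlapped. Of all 22180 genes, 0% passed and 20444 overlapped.

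Of 22 measured cofactors and turnover factors of MYC, 18 had positive and 4 negative differences, with a median of 0.04, and 0 passed. Most of them lay above the median level of all genes, where 6307 of 11081 genes were positive, with a median of 0.02. Pim1, a kinase known to stabilise MYC, had the largest difference of the list, -0.53 (SE 0.16). It read 9.13, 9.26 and 9.46 in Balb/c and 8.60, 8.56 and 9.10 in Balb/cBy, so every Balb/cBy array lay below every Balb/c array. The difference was -0.31 as the mean of all its probe sets and -0.30 with array weights. Zbtb17, the MIZ1 partner through which MYC represses genes, differed by 0.11 (SE 0.08) without overlap. The deacetylase Hdac1 differed by 0.18 (SE 0.19), or -0.017 without Balb/c replicate 2. The groups were apart and higher in Balb/cBy for 1 of the 22 genes and lower for 1, beside 4.32% and 3.51% of all genes. Above the median level they were apart for 647 and 305 of the 11081 genes.

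Genes of ribosome making, a main class of MYC targets, had 23 positive and 5 negative differences among 28 measured, with a median of 0.22. All genes above the median level, a closer background for such abundant transcripts, had a median of 0.02, with 6307 of 11081 positive. None of the 28 passed (limma, adjusted p = 0.999 each), and 3 had an unadjusted p under 0.05. So had 833 of all 22180 genes and 548 of the 11081 above the median level. Nop2, an rRNA methyltransferase, differed by 0.56 (SE 0.20), the 60S assembly factor Nop16 by 0.31 (SE 0.12) and Polr1a, the largest subunit of RNA polymerase I, by 0.37 (SE 0.14). Polr1a read 8.53, 8.48 and 8.58 in Balb/c and 8.63, 9.20 and 8.87 in Balb/cBy, with all Balb/cBy arrays above, as they were for Nop16. Nop2 read 9.13, 8.78 and 8.68 in Balb/c and 9.07, 9.84 and 9.35 in Balb/cBy, with overlap. Leaving out Balb/cBy replicate 2 gave 0.35 for Nop2 and 0.23 for Polr1a, and array weights gave 0.18 for Nop16. The groups were apart and higher in Balb/cBy for 5 of the 28 and lower for 0, beside 4.32% and 3.51% of all genes and 647 and 305 of the 11081 above the median level.

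The height of this list varied between arrays within a substrain. As the mean deviation of its genes from their 6-array means, it stood at -0.01, -0.20 and -0.07 in Balb/c and at -0.05, 0.27 and 0.06 in Balb/cBy. Balb/cBy replicate 2 was highest here, as for Myc and Max, and replicate 1 lay among the Balb/c arrays, as for Myc. That order was not particular to MYC targets. In Balb/cBy the other network factors stood at -0.07, 0.12 and 0.10 and the cofactors and turnover factors at -0.06, 0.07 and 0.02. Replicate 2 was the highest array for both of these lists. Without Balb/cBy replicate 2 the median difference of the list was 0.13. Bmyc had another order by the probe set used, with replicate 3 highest in both substrains. Its second probe set had replicate 2 highest in Balb/cBy, at 8.84, and replicate 1 lowest, at 8.44, as for Myc and Max.

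**Figure D4:**
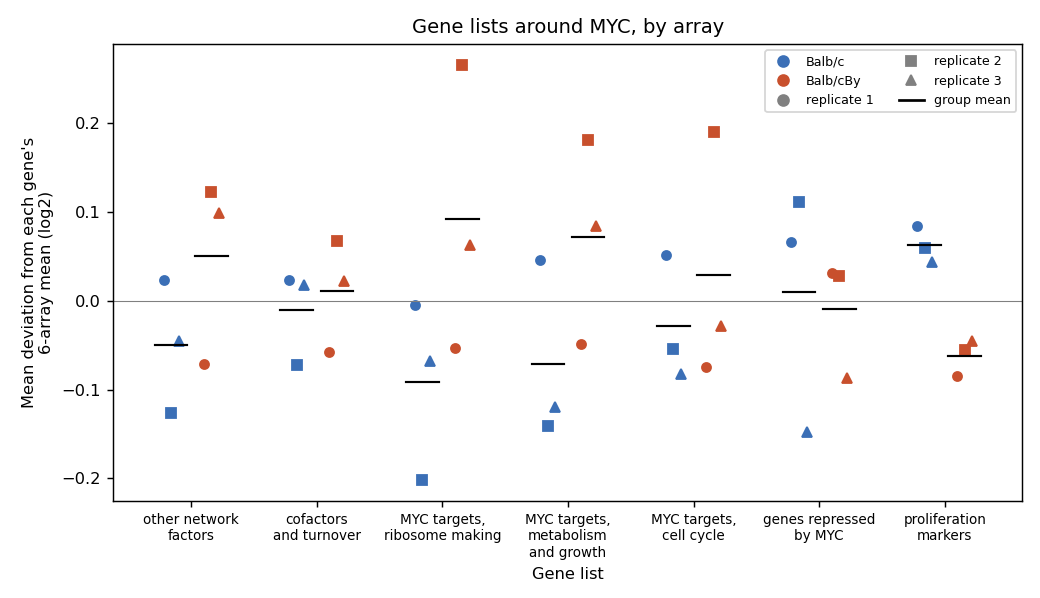
Mean deviation of the genes of each list from their own 6-array means in log2 units (y axis), for 7 lists (x axis); blue is Balb/c, red Balb/cBy, shapes are replicate numbers and black bars group means. Balb/cBy replicate 2 is highest for the MYC target lists, reaching 0.27 for ribosome making, and also for the other network factors and the cofactors. The proliferation markers lie between -0.08 and -0.05 in Balb/cBy and between 0.04 and 0.08 in Balb/c.

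MYC targets of metabolism and growth had 20 positive and 8 negative differences among 28 measured, with a median of 0.11. Of the 11081 genes above the median level 6307 were positive, with a median of 0.02. The median of the list became 0.05 when Balb/cBy replicate 2 was left out and 0.19 when Balb/cBy replicate 1 was. None passed, and 6 had an unadjusted p under 0.05 in limma. Under the same cut lay 833 of all 22180 genes and 548 of the 11081 above the median level. Cad, which opens pyrimidine synthesis, read 8.23, 8.32 and 8.07 in Balb/c and 8.55, 8.66 and 8.60 in Balb/cBy, a difference of 0.40 (SE 0.10) without overlap. The amino acid transporter Slc7a5 read 8.15, 8.43 and 8.06 in Balb/c and 8.61, 8.48 and 8.69 in Balb/cBy, a difference of 0.38 (SE 0.12), also without overlap. The arginine methyltransferase Prmt5 differed by 0.46 (SE 0.16) with overlap. The groups were apart and higher in Balb/cBy for 3 of the 28 genes and lower for 0, beside 4.32% and 3.51% of all genes. Above the median level they were apart for 647 and 305 of the 11081 genes.

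Targets in the cell cycle showed a median of 0.03, with 10 positive and 6 negative differences among 16 measured and 0 past the threshold. It was -0.028 without Balb/cBy replicate 2 and 0.11 without Balb/c replicate 1. E2f3, Ccnd2 and Cdc25a, which drive entry into the cycle, differed by 0.31 (SE 0.13), 0.25 (SE 0.12) and 0.21 (SE 0.10), each without overlap. Without Balb/cBy replicate 2 these were 0.16, 0.15 and 0.13. The groups were apart and higher in Balb/cBy for 3 of the 16 genes and lower for 0, beside 4.32% and 3.51% of all genes. Markers of dividing cells had 1 positive and 8 negative differences among 9 measured, a median of -0.12 and 0 past the threshold. All of them but Ccnb2 lay below the median level of all genes. Positive differences were less common there, since 10883 of all 22180 genes but 6307 of the 11081 above the median level were positive. The part of level in the differences of these markers was not tested. Mki67 read 7.58, 7.67 and 7.76 in Balb/c and 7.59, 7.33 and 7.54 in Balb/cBy, a difference of -0.18 (SE 0.11). Ccnb2 differed by -0.23 (SE 0.13) and Cdk1 by -0.28 (SE 0.17), all 3 with overlap. Without Balb/cBy replicate 2, Mki67 stood at -0.10 and Ccnb2 at -0.13, and without Balb/cBy replicate 1, Cdk1 stood at -0.11.

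Genes that MYC represses had 5 positive and 6 negative differences among 11 measured, with a median of -0.06, and 0 passed. Leaving out Balb/c replicate 2 gave a median of 0.0068, and leaving out Balb/c replicate 3 gave -0.13. Cebpa, a factor of mature hepatocytes, lay between 11.25 and 11.48 in Balb/c and between 10.83 and 11.10 in Balb/cBy, a difference of -0.36 (SE 0.11) without overlap. Thbs1, a matrix protein, differed by 0.54 (SE 0.19) and Clu, the chaperone clusterin, by 0.16 (SE 0.09), both without overlap. They were 0.33 for Thbs1 when Balb/cBy replicate 2 was left out and 0.08 for Clu when quantile normalization was repeated. The groups were apart and higher in Balb/cBy for 2 of the 11 genes and lower for 2, beside 4.32% and 3.51% of all genes. Cdkn1b was the further gene apart, lower in Balb/cBy at -0.14 (SE 0.08). The named members of this list therefore differed in both directions.

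Windows with a CACGTG were found for 7 of 25 ribosome-making genes (28%) and for 7 of 27 metabolism and growth genes (25.9%). They were found for 2 of 13 cell cycle targets (15.4%) and 2 of 9 genes repressed by MYC (22.2%), beside the 8.09% of all genes. These lists were put together as genes that MYC raises or represses, so the shares describe the lists and not these livers.

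Markers of other cells were read beside these lists, since in whole liver fewer cells of a type and less RNA per cell cannot be told apart. All 6 stellate cell markers had positive differences, from 0.0053 for Col1a1 and 0.03 for Col1a2 to 0.53 for Lum. Their summed level, to which Dcn gave the most, ran from 12.53 to 12.92 in Balb/c and from 12.85 to 13.24 in Balb/cBy. Kupffer cell markers had 5 positive and 3 negative differences, with summed levels from 12.72 to 13.57 and from 13.12 to 13.50. The summed level of 6 hepatocyte markers ran from 16.02 to 16.10 in Balb/c and from 15.99 to 16.15 in Balb/cBy. Of 5 measured B and plasma cell markers, Jchain differed by 1.12 and Mzb1, also a plasma cell gene, by 0.06 (SE 0.12) with overlap. The B cell genes Cd79a, Cd79b and Ms4a1 differed by -0.17 to -0.27. The 4 T cell markers and 3 exocrine pancreas markers all had negative differences, the 4 cholangiocyte markers 1 positive and 3 negative, the 5 endothelial markers 4 positive and 1 negative, and the 4 neutrophil markers 3 positive and 1 negative. No marker passed the threshold, and the part of other cells in the differences of the network was not tested.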

How the data were processed

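The deposited table holds log2 values per probe set, which the authors computed with RMA, per the submitters' processing notes. RMA corrects background, equalises the arrays' distributions and summarises probes. Its version, annotation and genome build were not given in the sources used here. That the scale is log2 follows from their range. There were 41345 probe sets on 6 arrays, of which 23521 carried 1 gene symbol, 1814 several and 16010 none here. Gene IDs of 193 probe sets were not found in RefSeq and kept the platform's symbol. No filter on low values was applied. The 22180 genes entered limma 3.58.1 (R 4.3.3; lmFit, then eBayes), Balb/cBy minus Balb/c, no covariate, Benjamini-Hochberg over all genes, threshold 0.05. The number of arrays limits precision.

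The members and the gene lists (187 entries, 175 measured) were chosen with earlier results of these data known. Named were all members, all further network factors, the 3 genes of each other pathway list with the smallest p, and the genes most and least like Bmyc. Pim1, Cad and others are thus examples, not calls. Marker genes of other cells and the neighbours of Bmyc were named once their values were known. Scripts were tested on simulated data. Alternatives were recentring, repeated quantile normalization, the mean of all probe sets, a level filter, other variance models, array weights, a replicate block and leaving out each array. Promoter windows came from RefSeq.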

Additional observations from a re-analysis of the deposited data

How the results depend on the processing

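The Bmyc difference of 0.82 ran from 0.73 to 0.93 over the 8 settings with all arrays and from 0.75 to 0.90 when each array was left out. Of all genes, 0 passed in the settings run with every array except array weights, which called 12 genes, none of them among the other 9 members. Those weights come from the same arrays. Leaving out each array called 0 to 3 genes, namely 2 without Balb/c replicate 3, and 3 when Balb/cBy replicate 1 was left out. No other member and no gene of the pathway lists passed in any of the 14 settings. The smallest adjusted p of Max over these settings was 0.406, when Balb/cBy replicate 1 was left out.

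Of 33 named genes with a test, 28 kept their sign in every setting that gave a value. Array weights gave 0.12 for Mga, 0.0038 for Usf1 and 0.0078 for Usf2, which were negative otherwise with all arrays. When each array was left out, Mga ran from -0.40 to 0.22, Mxd4 from -0.025 to 0.20, Usf1 from -0.20 to 0.010, Usf2 from -0.14 to 0.096 and Hdac1 from -0.017 to 0.33. The cause was not tested. The level filter dropped Mycn and Mycl, which then have no value. Of the proliferation markers it left Ccnb2 alone, so their median of -0.23 in that setting is the difference of this gene.

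Genes at an unadjusted p under 0.05 numbered 833, and 1761 with array weights, 461 with the level filter and 431 to 1828 when an array was left out. With the replicate number as a replicate block, 0 genes passed and 511 had an unadjusted p under 0.05. Arrays of the same number did not deviate together (correlations of -0.323, -0.201 and -0.228), so the numbers were not taken as pairs.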
